A study of Rattus norvegicus with 6 samples.

Results

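The dual specificity MAP kinase phosphatases are enzymes that switch MAP kinases off. Here 10 of their genes were followed in rat Schwann cells, the glia that ensheath peripheral axons, after stimulation with soluble Neuregulin1 (NRG1). The genes were chosen by symbol and not by a threshold on their values, with earlier results of these data known: Dusp1, Dusp2, Dusp4, Dusp5, Dusp6, Dusp7, Dusp8, Dusp10, Dusp14 and Dusp16, all 10 of which were among the 17327 genes of the count files. The series compared 3 mock and 3 NRG1 samples of primary Schwann cells from adult Wistar rats, 1 pair from each of 3 independent cell preparations, called cultures 1, 2 and 3 after the replicate number. Both groups were kept for 18 h before, and during, the stimulation in medium with 2% serum and 10 μM forskolin, which raises cAMP. The NRG1 samples then received 10 nM recombinant NRG1β1 for 6 h and the mock samples the same volume of its buffer with 1% albumin. All cells had been grown in medium containing neuregulin (named as glial growth factor in the sample labels and as NRG1β1 in the methods of the study) until this starvation, so mock means withdrawal of the ligand and not a cell that never met it.

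NRG1 binds ErbB receptors, and among the pathways below them is the Ras, Raf, MEK and ERK cascade, in which each kinase activates the next by phosphorylation. The dual specificity phosphatases remove the phosphate from both the threonine and the tyrosine of the activation loop of MAP kinases. Several of their genes are themselves switched on by ERK, so that the pathway builds its own brake. Dusp1, Dusp2, Dusp4 and Dusp5 encode inducible nuclear enzymes, Dusp6 and Dusp7 encode cytoplasmic enzymes that prefer ERK, and Dusp8, Dusp10 and Dusp16 encode enzymes that prefer the stress kinases JNK and p38. Dusp14 encodes a small atypical member without the MAP kinase binding domain of the others.

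After 6 h of NRG1, 3 of the 10 genes were up-regulated: Dusp6 2.35-fold, Dusp4 2.22-fold and Dusp7 1.71-fold. None of the 10 was down-regulated at the same threshold. Of the 9 genes with enough counts for the test, all but Dusp2, the other 6 did not pass. The threshold was an adjusted p of at most 0.01 in edgeR's quasi-likelihood test with the culture as a block. Of all 9740 genes tested, 6.31% passed upwards and 5.51% downwards, and 11.8% in either direction, against 3 of 9 members. With a fold change over 2 as well, 2 of the 9 members passed upwards, Dusp4 and Dusp6, against 1.56% of all genes. By role, both listed cytoplasmic ERK phosphatases and 1 of the 3 tested nuclear enzymes passed. None of the 3 that prefer JNK and p38 did, and a difference between roles was not tested. The median log2 fold change of the 9 members was 0.44, against -0.03 over all genes tested.

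Culture 1 stood apart from the other two in both groups. Its samples separated from the rest on the first principal component, which held 68% of the variance, and the second, with 19%, separated NRG1 from mock. Schwann cell markers were present in every sample, with the summed level of 12 genes between 7190 and 18700 CPM (counts scaled to a common library size, here by TMM) in mock and between 5160 and 13700 CPM in NRG1 samples, lowest in culture 1 in both groups. Gap43 was close to 0 in every sample, and 7 of the 11 markers tested were down-regulated by NRG1, against 5.51% of all genes tested. The summed level of 7 fibroblast markers was between 14100 and 53400 CPM in mock and between 13700 and 57700 CPM in NRG1 samples, highest in culture 1. Much of that sum in cultures 2 and 3 was the collagen gene Col1a1, while Thy1, Dcn and Lum had no count there and reached 1270, 611 and 23.2 CPM in mock sample 1. Pdgfra, a defining fibroblast receptor, was at 870 CPM in mock sample 1 and at 0.148 and 0.709 CPM in mock samples 2 and 3. Col1a2 was close to 0 in all samples, while Col1a1 was at 13400 to 32100 CPM. Macrophage and endothelial markers stayed low, with sums of at most 10.3 and 15.2 CPM, and Ptprc, Pecam1 and Cdh5 had no count. Of the 17327 genes listed, 13129 had a count in any sample. For a gene at or near 0 in all 6 samples, the counts cannot tell absent RNA from reads not assigned to the gene. Depth lay between 6821590 and 15475018 counts on genes, so that a floor of 3 counts stood at 0.194 to 0.44 CPM.

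Dusp6, which encodes the cytoplasmic phosphatase most specific for ERK, was read at 54.6, 110 and 145 CPM in mock samples 1, 2 and 3 and at 136, 289 and 292 CPM in NRG1 samples 1, 2 and 3. It was higher in the NRG1 sample of each pair, although the NRG1 level of culture 1 lay below the mock level of culture 3, so that the groups overlapped. The group means were 103.5 ± 45.8 CPM in mock and 238.7 ± 89.2 CPM in NRG1 samples (SD, n = 3). The fitted log2 fold change was 1.23 with a standard error of 0.13 (95% interval 0.96 to 1.499, adjusted p = 1.96e-05 by edgeR), and the log2 ratios of the 3 pairs were 1.31, 1.39 and 1.00. Ordered by p-value it was gene 47 of the 9740 tested.

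Dusp7, the close relative of Dusp6 and likewise a cytoplasmic ERK phosphatase, was read at 44.5, 58.9 and 81.6 CPM in mock samples 1, 2 and 3 and at 68, 114 and 137 CPM in NRG1 samples 1, 2 and 3. The order of the cultures was the same as for Dusp6, with culture 1 lowest and culture 3 highest in both groups. Its log2 fold change of 0.77 with a standard error of 0.12 (adjusted p = 0.000484 by edgeR) corresponds to a 1.71-fold rise, with a 95% interval from 1.43-fold to 2.05-fold. The pair ratios of 0.61, 0.95 and 0.75 were all positive.

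**Figure D1:**
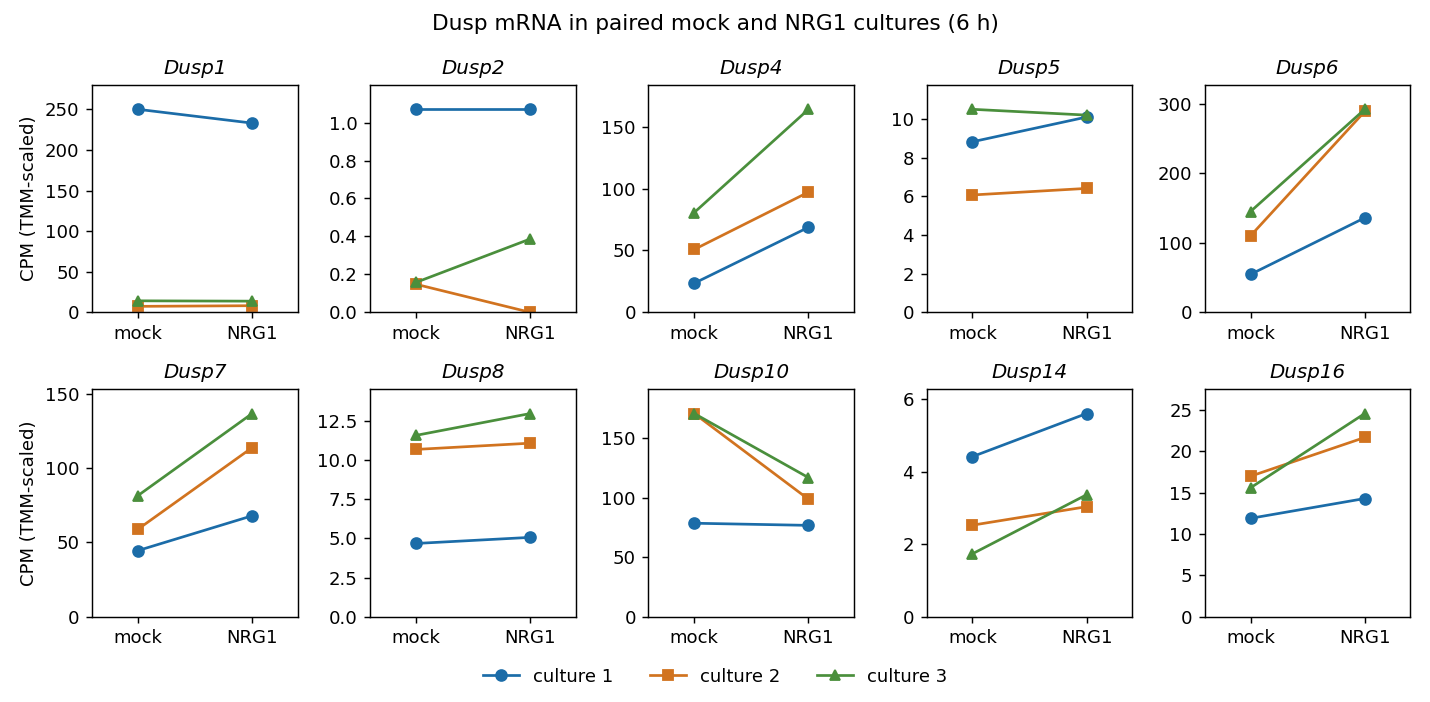
Level of each of the 10 genes in CPM (TMM-scaled, linear axis from 0, a separate scale for each gene) in mock and NRG1 samples, with a line joining the samples of a culture. The lines of Dusp4, Dusp6 and Dusp7 climb in all 3 cultures, Dusp10 is flat in culture 1 and lower with NRG1 in the other cultures, and Dusp1 is at 250 and 233 CPM in culture 1 against at most 14.2 CPM elsewhere.

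The promoters of both genes are shown because both listed cytoplasmic ERK phosphatases were up-regulated. The sequences are from RefSeq, assembly GRCr8, 250 bases before to 50 bases after the annotated gene start, read on the gene's strand from 5′ to 3′. The counts were made on another assembly, rn5. Dusp6 is at chr7:35979354-35979653, plus strand, and Dusp7 at chr8:115887841-115888140, plus strand. Capitals mark every match on either strand to 5 searched motifs: the cAMP response element TGACGTCA, the shorter core TGACG of that element, the AP-1 site TGANTCA, the core GGAAG of sites for ETS factors, and the CArG box bound by serum response factor. A TGACGTCA match also holds the shorter core, on both strands.
Dusp6 promoter: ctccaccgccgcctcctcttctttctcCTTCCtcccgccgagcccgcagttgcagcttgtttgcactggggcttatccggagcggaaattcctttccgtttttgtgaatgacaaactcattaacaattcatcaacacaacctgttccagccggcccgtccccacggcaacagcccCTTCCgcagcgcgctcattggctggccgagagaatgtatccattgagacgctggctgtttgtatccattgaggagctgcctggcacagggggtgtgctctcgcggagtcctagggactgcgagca
Dusp7 promoter: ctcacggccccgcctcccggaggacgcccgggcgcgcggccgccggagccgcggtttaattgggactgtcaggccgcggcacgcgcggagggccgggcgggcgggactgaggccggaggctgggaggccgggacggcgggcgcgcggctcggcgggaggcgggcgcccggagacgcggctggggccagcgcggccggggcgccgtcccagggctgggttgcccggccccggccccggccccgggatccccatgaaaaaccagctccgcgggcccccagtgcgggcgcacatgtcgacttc
The Dusp6 window holds 2 matches to GGAAG, both on the reverse strand, starting 223 and 75 bases before the gene start. This is a common motif, present in 70.1% of the 27457 promoters of the same length. The Dusp7 window matched none of the 5 motifs, and 81% of its bases are G or C, against a median of 52.3% over all promoters. Promoters were matched for 9 of the 10 genes, all but Dusp4.

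Among the nuclear enzymes, Dusp4 was the one that was up-regulated. It was read at 23.5, 50.8 and 80.6 CPM in mock samples 1, 2 and 3 and at 68.7, 97.1 and 164 CPM in NRG1 samples 1, 2 and 3. Each culture kept its place in the order, from culture 1 lowest to culture 3 highest, and the NRG1 level of culture 1 again lay below the mock level of culture 3. The fit gave a log2 fold change of 1.15 with a standard error of 0.14 (95% interval 0.86 to 1.44, adjusted p = 5.72e-05 by edgeR), the pair ratios were 1.54, 0.93 and 1.02, and it ranked as gene 106 by p-value. Without culture 1 its log2 fold change was 0.985, which still passed the test (adjusted p = 1.9e-06) but was just under a 2-fold change.

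Dusp1 encodes the nuclear phosphatase MKP-1, a classic early gene that acts on p38 and JNK as well as ERK. Its level differed far more between cultures than between the samples of a pair, with 250, 7.4 and 14.2 CPM in mock samples 1, 2 and 3 and 233, 8.2 and 13.8 CPM in NRG1 samples 1, 2 and 3. The mock level of culture 1 was 33.7 times that of culture 2, and the range of log2 levels over the mock samples was wider than in 99.5% of the genes tested. Within the pairs the log2 ratios were only -0.10, 0.15 and -0.04. The fit gave -0.03 on the log2 scale with a standard error of 0.13 (adjusted p = 0.899 by edgeR), and a 95% interval from 0.806-fold to 1.19-fold. The fibroblast markers Thy1, Dcn, Lum and Pdgfra were high in the same pair of samples as Dusp1. Their part in its level was not tested, and in bulk RNA more cells of a type and more RNA per cell cannot be told apart.

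**Figure D2:**
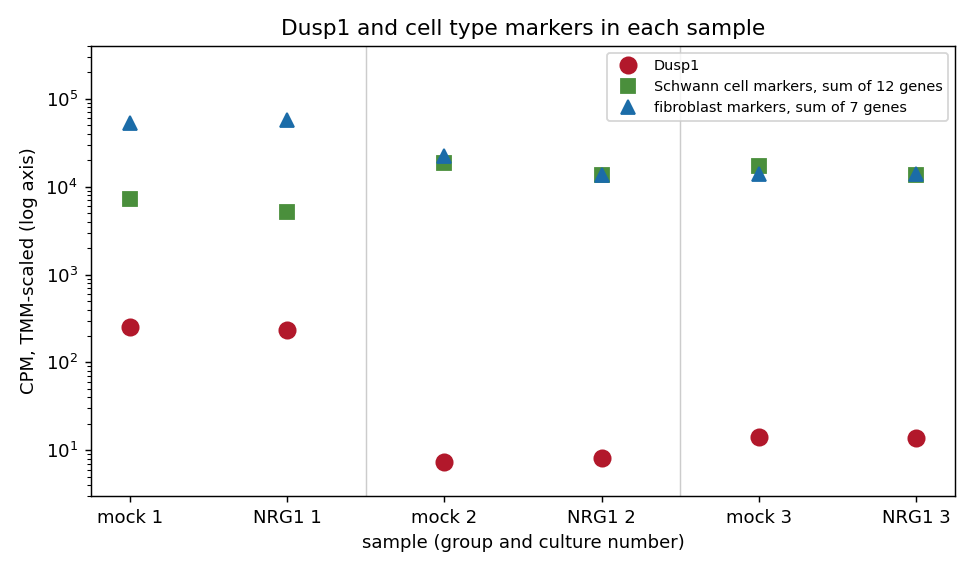
Dusp1 (circles), the sum of 12 Schwann cell markers (squares) and the sum of 7 fibroblast markers (triangles) in each of the 6 samples, in CPM (TMM-scaled) on a log axis, with mock and NRG1 samples of a culture side by side. Dusp1 and the fibroblast sum are highest, and the Schwann cell sum lowest, in both samples of culture 1.

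Dusp5, whose nuclear product acts on ERK alone, was low and differed little between the groups at 6 h, the only time sampled. It was read at 8.82, 6.07 and 10.5 CPM in mock samples 1, 2 and 3 and at 10.1, 6.41 and 10.2 CPM in NRG1 samples 1, 2 and 3. On the log2 scale the difference was 0.07 with a standard error of 0.19 (adjusted p = 0.825 by edgeR), and the 95% interval ran from 0.789-fold to 1.4-fold. Dusp2 was at the limit of detection, with 8, 1 and 2 counts in mock samples 1, 2 and 3 and 8, 0 and 6 counts in NRG1 samples 1, 2 and 3, and was not tested.

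The promoters of Dusp1 and Dusp5 are shown because they hold the rarer motifs among the members' promoters searched, although neither gene passed the test. Dusp4 was not among those searched. Dusp1 is at chr10:17184603-17184902, plus strand, and Dusp5 at chr1:262543524-262543823, plus strand, with the same window, assembly and marking as above.
Dusp1 promoter: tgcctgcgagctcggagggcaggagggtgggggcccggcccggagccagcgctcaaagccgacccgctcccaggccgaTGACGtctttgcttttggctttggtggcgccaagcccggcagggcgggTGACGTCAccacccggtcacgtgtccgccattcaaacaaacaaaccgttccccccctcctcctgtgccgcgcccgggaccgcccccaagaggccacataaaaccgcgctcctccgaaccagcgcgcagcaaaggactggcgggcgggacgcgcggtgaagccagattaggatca
Dusp5 promoter: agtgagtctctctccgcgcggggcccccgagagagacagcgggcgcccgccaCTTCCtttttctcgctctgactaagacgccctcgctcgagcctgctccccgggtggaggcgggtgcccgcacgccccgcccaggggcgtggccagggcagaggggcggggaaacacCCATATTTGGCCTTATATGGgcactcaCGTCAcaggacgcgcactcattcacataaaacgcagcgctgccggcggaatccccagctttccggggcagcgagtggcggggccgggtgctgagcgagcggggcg
The Dusp1 window holds 1 full cAMP response element, TGACGTCA, starting 124 bases before the gene start, and a further TGACG starting 172 bases before it. Of all promoters, 1.91% hold the full site and 22% the shorter core. The Dusp5 window holds 2 CArG boxes side by side, CCATATTTGG and CCTTATATGG, starting 82 and 72 bases before the gene start, and such a box is found in 1.64% of all promoters. A match of letters is a description of the sequence, and all 6 samples were in forskolin.

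Of the phosphatases that prefer JNK and p38, Dusp10 was the only member that was lower with NRG1 in all 3 pairs, which was the case for 30% of all genes tested. It was read at 78.6, 171 and 171 CPM in mock samples 1, 2 and 3 and at 76.8, 98.8 and 117 CPM in NRG1 samples 1, 2 and 3. The pair of culture 1 hardly differed, with a log2 ratio of -0.03, while the ratios were -0.79 and -0.55 in cultures 2 and 3. The fitted log2 fold change of -0.47 (standard error 0.14, 95% interval -0.77 to -0.16) missed the threshold with an adjusted p of 0.0282 by edgeR. It passed without culture 1, at -0.66 (standard error 0.18, adjusted p = 0.0024 by edgeR), and not without culture 2 or 3. The standard error was wider without culture 1, so the lower adjusted p does not mean a more precise estimate. Whether the response differed between cultures was not tested.

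Dusp16, another JNK and p38 phosphatase, was read at 11.9, 17 and 15.6 CPM in mock samples 1, 2 and 3 and at 14.3, 21.7 and 24.6 CPM in NRG1 samples 1, 2 and 3. It was higher in each pair, with log2 ratios of 0.26, 0.35 and 0.65, yet did not pass, at 0.44 on the log2 scale with a standard error of 0.16 (95% interval 0.10 to 0.78, adjusted p = 0.0589 by edgeR). Dusp8, which is known mainly as a JNK phosphatase of the nervous system, was at 4.68 to 11.6 CPM in mock and 5.07 to 13 CPM in NRG1 samples, and the fitted difference was 0.12 on the log2 scale with a standard error of 0.19 (adjusted p = 0.681 by edgeR). Its pair ratios were 0.11, 0.06 and 0.17, and 4.84% of all genes had a narrower range. The atypical Dusp14 had from 17 to 52 counts a sample and levels of 4.41, 2.52 and 1.73 CPM in mock samples 1, 2 and 3 and of 5.6, 3.03 and 3.36 CPM in NRG1 samples 1, 2 and 3. Its log2 fold change was 0.54 with a wide standard error of 0.28 (95% interval -0.06 to 1.13, adjusted p = 0.184 by edgeR). That interval runs from 0.958-fold to 2.19-fold.

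**Figure D3:**
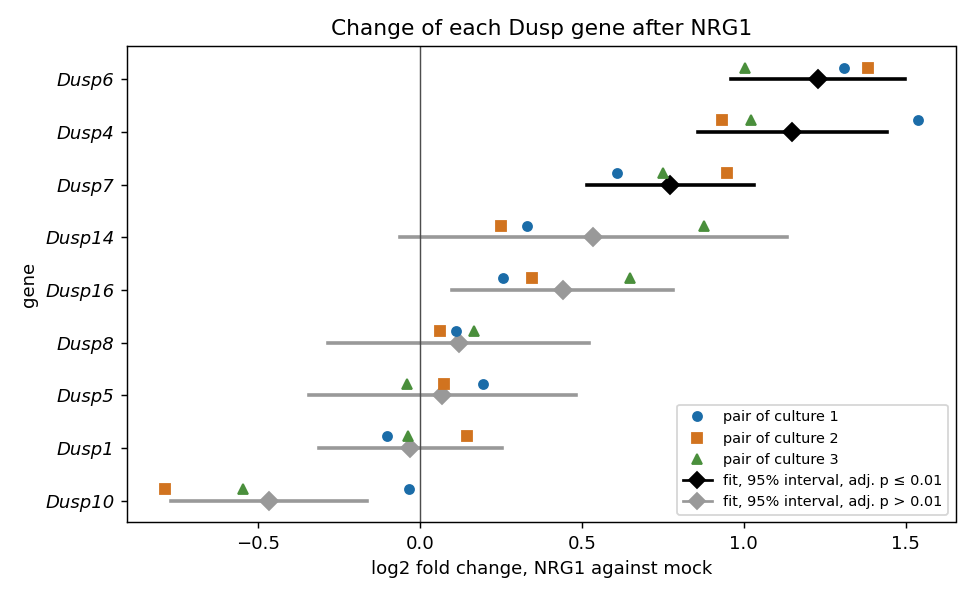
Log2 fold change of the 9 tested genes, NRG1 against mock: diamonds with lines are the fitted value and its 95% interval, black where the adjusted p was at most 0.01, and the small symbols are the log2 ratios of the 3 single pairs. Dusp6, Dusp4, Dusp7 and, in grey, Dusp16 have intervals wholly above 0. Dusp10, also grey, lies at -0.47 with its interval wholly below 0 and its culture 1 pair at -0.03. Dusp1, Dusp5 and Dusp8 lie near 0.

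In 6 of the 9 tested members, NRG1 was the higher sample in all 3 pairs, against 25.9% of all genes tested. In none of the 9 were all NRG1 samples above all mock samples, against 10.2% of all genes, nor below them, against 9.94%. For the 3 up-regulated genes the cultures differed by amounts of the order of the response: the highest mock level was 3.43 times the lowest for Dusp4, 2.66 times for Dusp6 and 1.84 times for Dusp7, and among the NRG1 samples it was 2.39, 2.15 and 2.02 times. Culture 1 was the lowest in both groups for 6 members, Dusp4, Dusp6, Dusp7, Dusp8, Dusp10 and Dusp16, an order found in 32.7% of all genes tested. It was the highest in both groups for the tested members Dusp1 and Dusp14, an order found in 28.9%. A fit that ignores the pairing sets these differences against the response, and with no replicate block none of the 3 up-regulated genes passed edgeR's test, with adjusted p-values of 0.32 for Dusp6, 0.36 for Dusp7 and 0.41 for Dusp4. In that edgeR fit the unadjusted p was under 0.05 for 2 of the 9 members, against 1334 of the 9740 genes tested. No gene of the whole table had an adjusted p of at most 0.01 in it.

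Across the 6 samples, the genes whose log2 CPM followed each up-regulated member most closely were named by Pearson's r, as a description, since the samples share 3 cultures. For Dusp4 they were Sppl2b, Afap1l1 and Abr (r from 0.995 to 0.996), for Dusp6 Farsa, Mrpl38 and Ahcy (r from 0.997 to 0.998) and for Dusp7 Slc16a13, Smpd4 and Preb (r from 0.995 to 0.999). Of these, Afap1l1 came closest to its member in size of response, with a log2 fold change of 1.14 against 1.15 for Dusp4. Abr, Smpd4 and Preb did not pass, with 0.40, 0.28 and 0.33 (adjusted p = 0.027, 0.11 and 0.062 by edgeR). The other named genes were up-regulated. For Dusp6, 342 of the 9731 other genes had an r over 0.95, so these names are the top of a long list.

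The other genes of the pathway were taken as fixed lists. Of 16 further dual specificity phosphatases and related pseudophosphatases, 15 were among the 17327 genes and 7 were tested. None passed, against 11.8% of all genes tested in either direction. Dusp15, known for a role in myelinating glia, came nearest together with the pseudophosphatase Styxl1, with log2 fold changes of -0.97 each (adjusted p = 0.0111 and 0.0122 by edgeR). Dusp9, the remaining typical MAP kinase phosphatase and the third cytoplasmic ERK enzyme, was at 0 to 0.4 CPM. Of the 3 tyrosine phosphatases that bind MAP kinases, only Ptpn7 had enough counts. It was low, at 1.34, 3.55 and 3.7 CPM in mock samples 1, 2 and 3 and at 0.533, 1.46 and 1.61 CPM in NRG1 samples. Its log2 fold change of -1.24, with a standard error of 0.33, did not pass (adjusted p = 0.0141 by edgeR).

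For the lists of kinases around these phosphatases, the share of all genes tested that passed in either direction was again 11.8%. In the ERK cascade below the receptors, 1 of 16 tested genes was up-regulated, the MEK gene Map2k1 with a log2 fold change of 0.59 (adjusted p = 0.00326 by edgeR). The docking protein gene Gab1 was down-regulated, with -0.52 (adjusted p = 0.00929). Of 15 listed genes of the JNK and p38 cascades, 10 were tested and none passed. Map2k3 and Mapk13 of that list had no count in any sample. Among 9 kinases activated by MAP kinases, Rps6ka1, which encodes an ERK-activated ribosomal S6 kinase, was up-regulated by 0.51 (adjusted p = 0.00835), and Rps6ka5, which encodes the nuclear kinase MSK1, was down-regulated, with -0.87 (adjusted p = 0.000193).

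Among 20 genes known as ERK feedback inhibitors or ERK targets, 10 were up-regulated and 2 were down-regulated, against 6.31% and 5.51% of all genes tested, with a median log2 fold change of 0.84. The 4 with the largest changes were Fosl1 with 1.69, Etv5 with 1.65, Fos with -1.61 and Ccnd1 with 1.39, where Fosl1 and Fos encode AP-1 subunits, Etv5 an ETS factor and Ccnd1 the G1 cyclin D1 (edgeR adjusted p of at most 1.23e-05). The other down-regulated gene was Egr1, with -1.13 (standard error 0.26, adjusted p = 0.00711 by edgeR). Its pair of culture 1 hardly differed, with log2 ratios of -0.027, -1.974 and -1.465 in cultures 1, 2 and 3. Of the 8 cAMP target genes, 2 were down-regulated (5.51% of all genes), the nuclear receptor gene Nr4a2 with -1.25 and the clock gene Per1 with -0.78, and none was up-regulated.

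**Figure D4:**
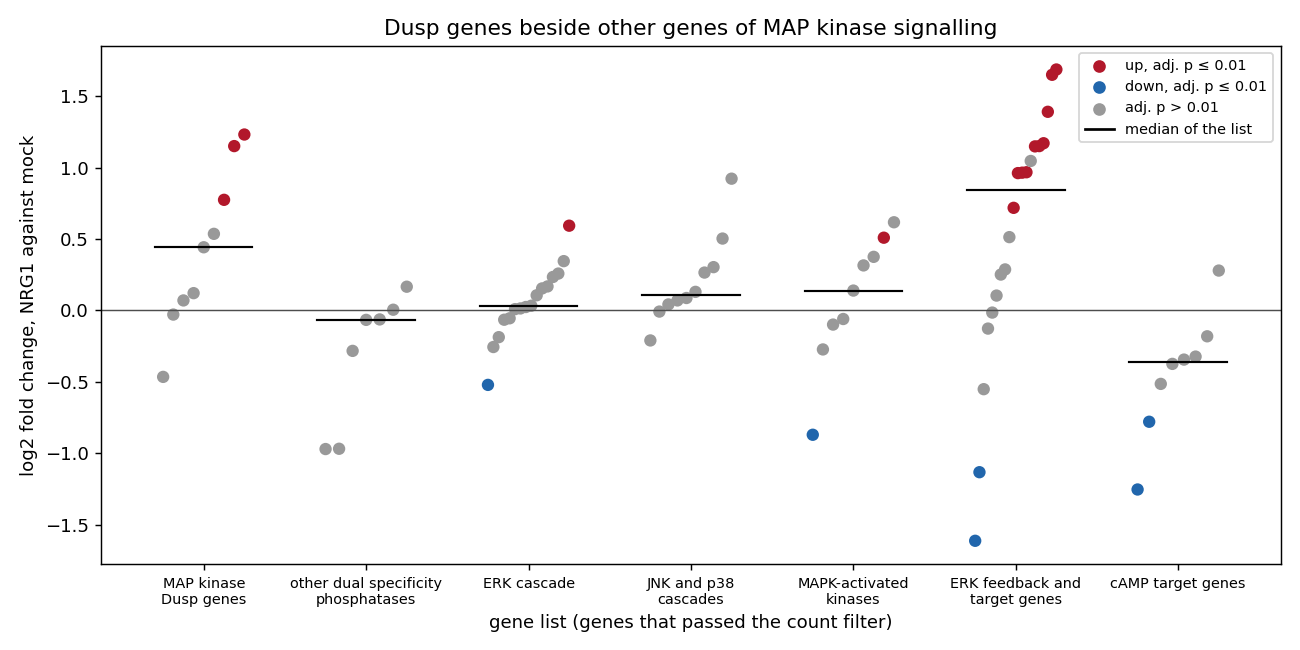
Log2 fold change, NRG1 against mock, of the tested members of each gene list, 1 point a gene, red where up-regulated, blue where down-regulated and grey where the adjusted p was over 0.01, with a black line at the median of each list. The MAP kinase Dusp genes have their median at 0.44, the ERK feedback and target genes at 0.84, and the ERK cascade at 0.03.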

How the data were processed

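RNA was measured in 3 mock and 3 NRG1 samples. The authors aligned poly(A) RNA-Seq reads to rn5 (TopHat 2.0.10), used htseq with the RefSeq genes and deposited raw counts, 1 file a sample. Summary lines that name no gene (50.09% to 52.99% of the alignments) were kept out. Groups and replicate numbers came from the sample titles. Counts were filtered with filterByExpr (minimum count 10), which left 9740 genes, scaled by TMM and tested with edgeR 4.0.16 (R 4.3.3), quasi-likelihood, with the replicate as a block as in the study's paired design, and Benjamini-Hochberg adjustment over all genes tested. The study's own tool, DESeq2 (here 1.42.0), was an alternative. A gene passed at an adjusted p of at most 0.01. Standard errors are the log2 fold change over the square root of F. CPM are TMM-scaled, and pair ratios use a prior count of 2. The fit was tested on simulated data.

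Each number is an independent cell preparation in the methods. Deviations from the group means correlated, across genes, with r = 0.91, 0.67 and 0.81 for samples with the same number and with -0.80 to 0.51 otherwise. No 2 samples were duplicates (chi-square over its degrees of freedom 22.9 or more). Named were all 10 members, for each member that passed the 3 genes with the highest r, and from each list up to 4 genes that passed with the largest changes, while Dusp9, Dusp15, Styxl1, Ptpn7 and Egr1 were added after their values were seen. Members and lists were chosen with earlier results of these data known. Alternatives were no replicate block, DESeq2, RLE scaling, other count filters, robust estimation, leaving out each replicate and an adjusted p of 0.05. Gene lengths were not used, so levels are compared between samples and not between genes.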

Additional observations from a re-analysis of the deposited data

How the results depend on the processing

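Dusp4, Dusp6 and Dusp7 kept their direction in every alternative run, and passed in all but the unpaired ones. With no replicate block in edgeR their log2 fold changes were 1.09, 1.21 and 0.79 (adjusted p = 0.41, 0.32 and 0.36), and no gene passed: 0 up and 0 down, 0 with a fold change over 2, 0 members, with a smallest adjusted p of 0.14 and 1334 genes at an unadjusted p under 0.05. In DESeq2 with no replicate block, an alternative chosen after seeing the data, they were 1.10, 1.22 and 0.80 (adjusted p = 0.26, 0.10 and 0.24), 115 genes passed upwards and 63 downwards, 54 and 34 of them over 2-fold, and 0 members, and Dusp1 received no adjusted p. The pairing is that of the cell preparations, and the biological coefficient of variation was 0.12 with the block and 0.37 without it.

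With the block, DESeq2 gave 123 genes down over 2-fold, against 186 in edgeR. With no filter on low counts 857 genes passed downwards, against 537, and Dusp10 passed, with -0.48 (adjusted p = 0.0043), as the 1 member down. At an adjusted p of 0.05, 1124 genes passed upwards and 1136 downwards, and Dusp10 was again the 1 member down. Leaving out a replicate gave 408 to 590 genes up, 253 to 601 down and 122 to 299 down over 2-fold, from 0 to 1 members down and from 1 to 2 members up over 2-fold. In these fits the log2 fold change of Dusp1 ran from -0.073 to 0.041 and was 0.041 without replicate 1 and 0.008 without replicate 3, opposite in sign to the value with all samples, and that of Dusp10 ran from -0.66 to -0.30. Depth limits Dusp2 and Dusp14 most. With 3 pairs and a block each gene alone has few residual degrees of freedom, and edgeR's test adds to them from the other genes.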
